A study of Mus musculus with 12 samples.

Results

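The 9 genes described here report on the unfolded protein response and the integrated stress response: the endoplasmic reticulum chaperones Hspa5, Hsp90b1 and Calr, the transcription factors Atf6, Xbp1, Atf4 and Ddit3, and the stress genes Trib3 and Asns. They were chosen by symbol from the 23238 symbols of the deposited tables, and all 9 were among the 13943 genes tested. Kidney transcripts of C57BL/6 mice had been measured by QuantSeq, which sequences the 3′ ends of polyadenylated RNA, in 3 groups of 4 libraries. The Control group had no disease named, the CKD group had chronic kidney disease, and the CKD TRF group had the same disease and was kept on time restricted feeding, a schedule that limits eating to certain hours. All groups shared the strain and the tissue, and no allele, transgene or drug is named for any group. How the disease was induced, the feeding hours, the age, the sex and the time of sampling are not given in the sources used here.

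Proteins that fail to fold in the endoplasmic reticulum (ER) draw the chaperone BiP, the product of Hspa5, away from the ER membrane sensors IRE1, PERK and ATF6. IRE1 splices the Xbp1 transcript, ATF6 is cut in the Golgi to release a transcription factor, and both raise chaperones and the machinery that removes misfolded proteins. PERK and other kinases phosphorylate eIF2, which lowers general translation and favours translation of ATF4, a transcription factor for amino acid synthesis and transport genes and for Ddit3, which encodes CHOP. In the kidney, tubule cells carry much of the secretory and membrane protein load, and these responses are known from tubular injury. Splicing of Xbp1, cleavage of ATF6 and translation of Atf4 leave no trace in counts of 3′ ends, so the values below are transcript levels only.

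In CKD kidneys 3 of the 9 genes fell and none rose against Control: Atf6 by 0.68, Hspa5 by 0.56 and Hsp90b1 by 0.40 on the log2 scale, at a limma adjusted p under 0.05 over all tested genes. Of all tested genes 45.4% passed the same test, 23.6% higher and 21.8% lower, so the share of these genes that passed was not above that of all tested genes. Under time restricted feeding 2 of the 9 fell against Control, Atf6 by 0.56 and Atf4 by 0.36, where 37.5% of tested genes passed, 19.5% higher and 17.9% lower. Between CKD TRF and CKD none of the 9 passed, and neither did any other tested gene (0.0% of tested genes, limma). Both comparisons with Control share the Control libraries and are not independent.

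The files held log2 of a scaled read number plus 1. Scaled reads are whole reads times a factor for each library, with sums near those of CPM values. Control libraries held 10985813 to 12806073 reads, CKD libraries 14507890 to 16852857 and CKD TRF libraries 14141322 to 17204344. A count of 0 is compatible with up to 3 reads, or 0.168 to 0.306 scaled reads depending on the library, for counting error only. The 12 proximal tubule markers were abundant in every library, summing to 53220 to 71100 scaled reads (Control), 30110 to 36500 (CKD) and 34240 to 41400 (CKD TRF). Macrophage markers summed to 180 to 213, 611 to 790 and 576 to 740 in the same order, fibroblast markers to 231 to 279, 1212 to 1386 and 1002 to 1148, and T cell markers to 2.72 to 3.78, 17.6 to 26.3 and 15.7 to 19.3. B and plasma cell markers summed to 26.5 to 73.2, 81.4 to 111.3 and 43.3 to 102.7, and urothelial markers to 3.67 to 14.6, 28.5 to 139.7 and 31.9 to 120.0. The fat list summed to 112 to 241, 87.6 to 776 and 55.7 to 352, with Plin1 at 0 in every Control library. The sum of Adipoq, Cfd, Cidec, Plin1 and Retn was 66.1 to 385 scaled reads in the libraries CKD 2, CKD 4, CKD TRF 1, CKD TRF 3 and CKD TRF 4, and 0 to 11.7 in the other 7. Pancreas markers Cpa1, Cpb1 and Pnlip were at 0 in every Control and CKD TRF library, and the list's sum of 251.5 to 357, 92.8 to 155 and 162 to 179 lay mostly in Cela1. As deposited, 10 of 10 macrophage, 7 of 8 fibroblast and 6 of 7 tested T cell markers rose in CKD (limma), and 8 of 12 proximal tubule markers fell. In whole kidney, fewer cells of a type and less RNA per cell cannot be told apart, and the part of these markers in the results was not tested. Control 1 and Control 2 stood apart from the other Control libraries in estimated sample weights, 0.590 and 0.405 against 1.05 and 1.48. These weights entered only the alternative with sample weights and not the main fit. Whether the libraries stem from different animals is not stated in the labels, so p-values measure the spread between libraries, which may be technical.

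Scaling between libraries bears on every comparison, because the sums of the 3 groups did not overlap. Control libraries summed to 1076402 to 1179702 scaled reads, CKD libraries to 940904 to 978104 and CKD TRF libraries to 987502 to 1025504. In the deposited scaling the median tested gene changed by 0.02 in CKD against Control, and with equal sums it moved to 0.23, so the same data then held 76.3% of called genes as higher in place of 52.1%. Median centring gave 40.3% higher, and limma voom on recovered whole reads 75.8%. For CKD TRF against Control the shares were 52.1% as deposited, 71.9% with equal sums, 41.6% with median centring and 71.3% with voom. In CKD TRF against CKD the median tested gene changed by -0.01 as deposited, -0.08 with equal sums and -0.09 with voom. Atf4 there went from -0.16 as deposited to -0.24 with equal sums and with voom.

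The 3 ER chaperones are the first group. Hspa5 encodes BiP, the main ER chaperone and the protein that holds the sensors inactive. The gene lies on the plus strand of chr2:34771970-34777547 (mm10, GENCODE M21) and has 9 exons. In the deposited log2 values Hspa5 stood at 10.12, 9.94, 10.63 and 10.70 in Control 1 to 4, at 9.80, 9.92, 9.85 and 9.58 in CKD 1 to 4, and at 10.24, 9.84, 9.88 and 9.92 in CKD TRF 1 to 4. Every Control library was above every CKD library, by a narrow margin for Control 2, and CKD TRF 1 was above 2 of the Control libraries. Control averaged 1335 ± 339 scaled reads, CKD 886 ± 87.3 and CKD TRF 1008 ± 134 (SD, n = 4 each). Hspa5 fell by 0.56 ± 0.15 (SE) on the log2 scale in CKD, which is 32.2% lower (limma adjusted p = 0.00443). The call did not hold with equal sums (-0.33, limma adjusted p = 0.0934), with voom (-0.33, limma adjusted p = 0.0858), with quantile normalization (-0.11, limma adjusted p = 0.592), or without the 5 libraries with fat markers (-0.52, limma adjusted p = 0.0705), where CKD kept 2 libraries.

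Hsp90b1 encodes endoplasmin, the ER member of the HSP90 family, which folds integrins and Toll-like receptors among others. It lies on the minus strand of chr10:86690209-86705509 and has 18 exons. Its log2 values were 9.86, 9.50, 9.84 and 10.08 in Control, 9.37, 9.32, 9.56 and 9.43 in CKD, and 9.66, 9.61, 9.51 and 9.44 in CKD TRF, by library number. Control 2 lay below CKD 3, and the other Control libraries lay above all diseased libraries. Control averaged 911 ± 147 scaled reads, CKD 685 ± 50.5 and CKD TRF 752 ± 50.4. Hsp90b1 fell by 0.40 ± 0.11 in CKD (limma adjusted p = 0.00664) in the deposited scaling, with the opposite sign under quantile normalization (0.05, limma adjusted p = 0.715). With equal sums the change was -0.17 (limma adjusted p = 0.243), with voom -0.17 (limma adjusted p = 0.225), and without the 5 libraries with fat markers -0.36 (limma adjusted p = 0.130). The pseudogene 1810014B01Rik covers the 3′ end of Hsp90b1 on the opposite strand, and the strand setting of the counting is not given in the sources used here, so reads of the 2 cannot be told apart. Of the 50-base words in the last 500 bases of its transcripts, 2.11% also occur in the overlapping gene Gm15344. None of those of the other 8 genes occur in transcripts of genes outside the 9. Words shared among the 9 and words on the opposite strand were not searched.

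Calr encodes calreticulin, a lectin chaperone that binds calcium and folds glycoproteins. It lies on the minus strand of chr8:84841850-84846934 and has 9 exons. Its log2 values were 9.29, 9.22, 9.42 and 9.31 in Control, 9.08, 8.93, 9.15 and 9.14 in CKD, and 9.40, 9.14, 9.18 and 8.95 in CKD TRF. All 4 CKD libraries lay below all Control libraries, and CKD TRF spanned both ranges. In scaled reads Calr averaged 634 ± 36.4 (Control), 539 ± 38.1 (CKD) and 577 ± 74.5 (CKD TRF). The change of -0.24 ± 0.10 in CKD did not pass (limma adjusted p = 0.0653), and its sign was the opposite under quantile normalization (0.15). It did pass with median centring (-0.34, limma adjusted p = 0.0103), with sample weights (-0.25, limma adjusted p = 0.0412) and without Control 2 (-0.26, limma adjusted p = 0.0483). Control 2 was the lowest Control library for Calr, so leaving it out had to enlarge the fall.

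The promoters of these 3 genes are shown because each holds the ER stress element, the sequence bound by cleaved ATF6 together with NF-Y, and because Hspa5 and Hsp90b1 fell in CKD. The element was searched as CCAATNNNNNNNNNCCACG on both strands in the 250 bases before the RefSeq start (GRCm38.p6), and its matches are in capitals below.
Hspa5, chr2:34771840-34772089, plus strand: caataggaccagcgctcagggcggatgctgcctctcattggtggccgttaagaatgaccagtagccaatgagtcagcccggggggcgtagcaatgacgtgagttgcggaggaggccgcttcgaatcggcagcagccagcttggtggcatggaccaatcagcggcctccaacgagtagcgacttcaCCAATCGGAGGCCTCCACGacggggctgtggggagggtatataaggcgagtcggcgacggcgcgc
Hsp90b1, chr10:86705445-86705694, minus strand: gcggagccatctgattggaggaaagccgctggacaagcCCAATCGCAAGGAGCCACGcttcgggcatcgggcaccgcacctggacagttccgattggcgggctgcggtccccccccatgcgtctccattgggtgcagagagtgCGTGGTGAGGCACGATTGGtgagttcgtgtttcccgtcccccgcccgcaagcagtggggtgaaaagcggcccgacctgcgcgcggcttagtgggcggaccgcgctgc
Calr, chr8:84846932-84847181, minus strand: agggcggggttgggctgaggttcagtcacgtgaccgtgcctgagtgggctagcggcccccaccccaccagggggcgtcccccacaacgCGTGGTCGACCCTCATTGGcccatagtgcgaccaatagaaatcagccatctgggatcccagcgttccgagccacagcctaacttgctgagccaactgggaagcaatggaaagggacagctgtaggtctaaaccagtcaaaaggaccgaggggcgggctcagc
In Hspa5 the match ran from 65 to 47 bases before the start. Hsp90b1 held a match from 212 to 194 bases before the start and another, on the reverse strand, from 107 to 89. In Calr the match was on the reverse strand, from 162 to 144 bases before the start. The element occurred in 3 of the 8 promoters of these genes in the table and in 37 of 32851 promoters in all (0.113%). Its CCACG end alone, which is part of the full element, occurred in 5 of the 8 and in 28.3% of all promoters. The unfolded protein response element, TGACGTGG, occurred in none of the 8 and in 0.563% of all. The C/EBP-ATF response element, TGATGNAA, occurred in Asns, from 23 to 16 bases before the start, and in 3.45% of all. A match is a description of the letters and not a shown binding site, and Atf6 has no entry in that table.

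Other genes with the ER stress element were counted for comparison. Besides Hspa5, Hsp90b1 and Calr, 16 tested genes had the element in their promoter, of which 3 rose and 2 fell in CKD, 31.2% against 45.4% of all tested genes. Their median change was 0.00, against 0.02 for all tested genes. Adcy3 (1.15, limma adjusted p = 5.5e-04), Acacb (0.70, limma adjusted p = 0.0157) and Pan2 (0.64, limma adjusted p = 0.0145) rose. Creld2 (-0.69 ± 0.20, limma adjusted p = 0.00781) and Dnajc3, an ER co-chaperone that restrains PERK (-0.39 ± 0.10, limma adjusted p = 0.00470), fell. Their calls held in 19 and 17 of 21 limma alternatives, and both were lost with equal sums and with voom. That of Dnajc3 was also lost with quantile normalization and without the 5 libraries with fat markers. The other 11 did not pass and ranged from -0.88 (Xlr3b) to 0.41 (Alg12), with the membrane-bound lectin chaperone gene Canx at 0.10 and the disulfide isomerase gene Pdia6 at -0.25. The genes named from the 16 were named after their values were seen.

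**Figure D1:**
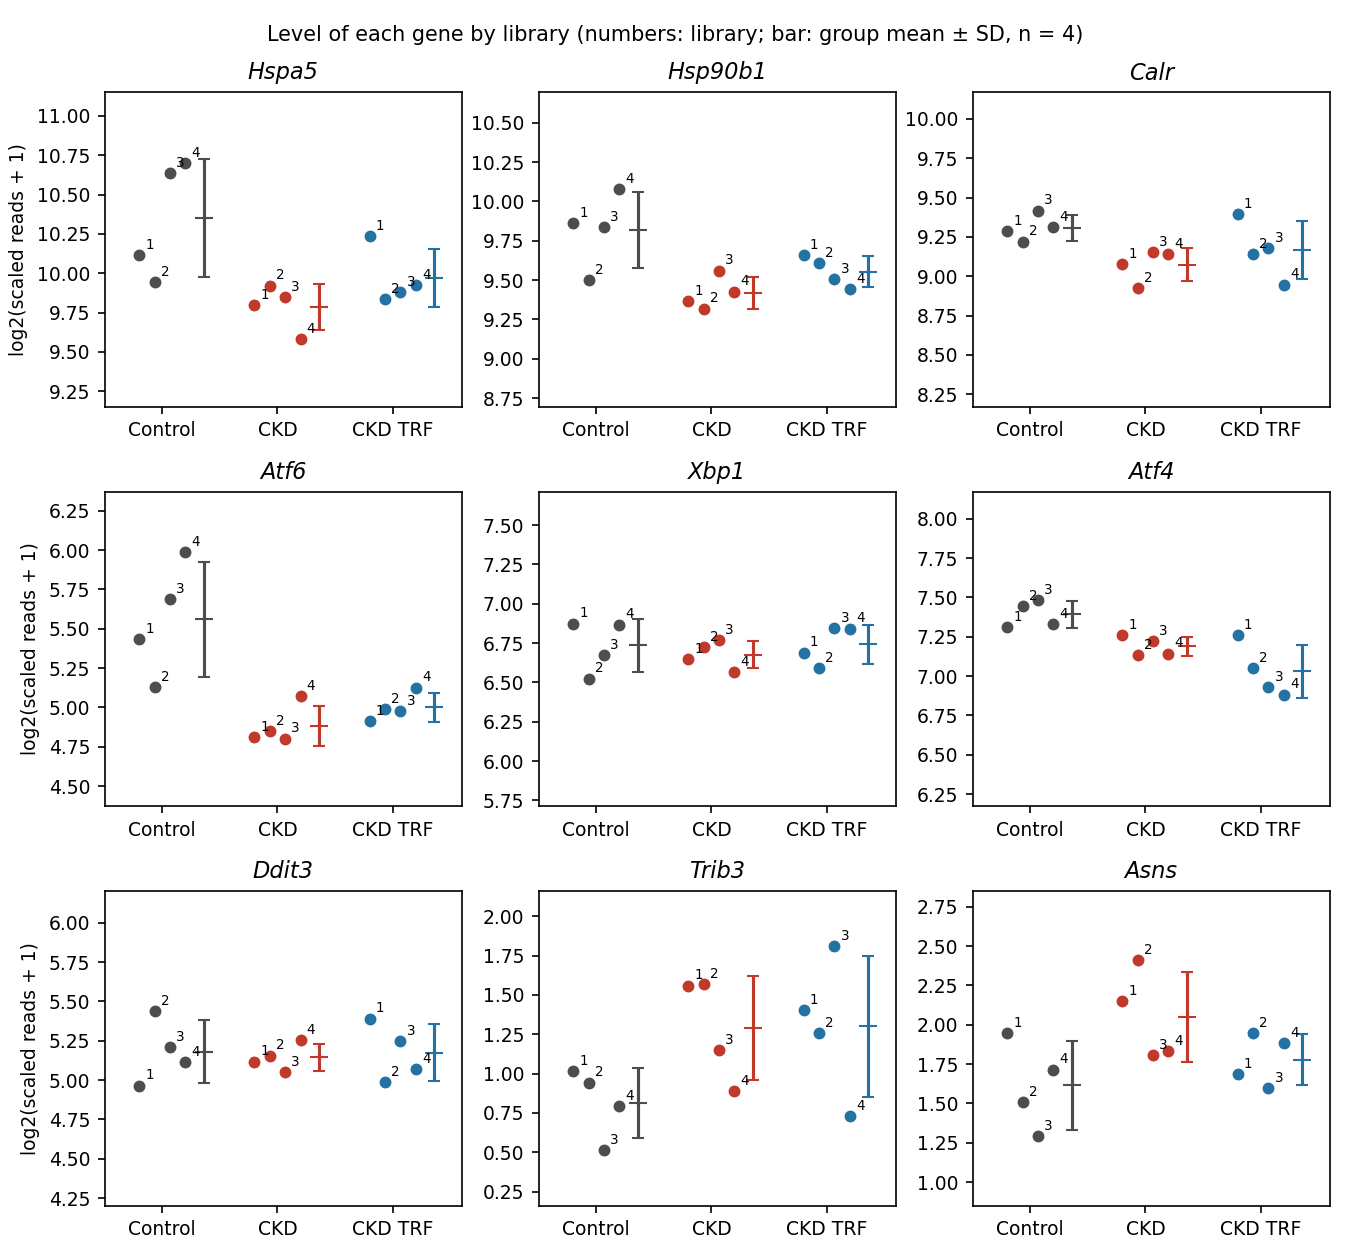
Deposited log2 values (log2 of scaled reads plus 1) of the 9 genes in each library, 1 panel per gene with its own axis of equal span; points are libraries with their numbers, and bars are group means ± SD (n = 4). For Atf6 the Control points, from 5.13 to 5.99, all lie above the CKD and CKD TRF points, while for Xbp1 and Ddit3 the 3 groups overlap.

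The sensor and transcription factor genes come next. Atf6 encodes the membrane-bound sensor whose released part activates chaperone genes. It lies on the minus strand of chr1:170704674-170867771 and has 16 exons. Its log2 values were 5.44, 5.13, 5.69 and 5.99 in Control, 4.81, 4.85, 4.80 and 5.07 in CKD, and 4.91, 4.99, 4.98 and 5.13 in CKD TRF. The lowest Control library, Control 2, lay above every CKD library and just above the highest CKD TRF library. In scaled reads Atf6 averaged 47.3 ± 12.2 (Control), 28.6 ± 2.70 (CKD) and 31.0 ± 2.03 (CKD TRF). Atf6 fell by 0.68 ± 0.15 in CKD, 37.5% lower (limma adjusted p = 8.7e-04), and 1097 of the 13943 tested genes, 7.87%, had a more negative change. The call held in all 21 alternative limma settings, with changes from -0.96 to -0.46 and adjusted p up to 0.0242.

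Relative to the median tested gene, Atf6 moved by -0.70 as deposited, -0.68 with equal sums, -0.62 with quantile normalization and -0.72 with voom. For Hspa5 the same 4 values were -0.58, -0.56, -0.07 and -0.58. Under quantile normalization Hspa5 lay near the median tested gene and Atf6 did not.

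Xbp1 encodes the factor that the IRE1 arm makes active by splicing, and the gene lies on the plus strand of chr11:5520659-5525893 with 5 exons. Its log2 values ran from 6.52 to 6.87 in Control, from 6.57 to 6.77 in CKD and from 6.59 to 6.85 in CKD TRF, ranges that overlap throughout. The mean was 106 ± 12.3, 102 ± 6.19 and 106 ± 9.21 scaled reads in that order. The change in CKD was -0.06 ± 0.10 (95% interval -0.27 to 0.15, limma adjusted p = 0.676) and had the opposite sign with equal sums (0.17), voom (0.17) and quantile normalization (0.09). Spliced and unspliced Xbp1 transcripts share their 3′ end and are counted together.

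Atf4 encodes the effector of the integrated stress response, whose output is controlled mainly in translation. It lies on the plus strand of chr15:80255184-80257541 and has 4 exons. Its log2 values were 7.31, 7.45, 7.48 and 7.33 in Control, 7.26, 7.14, 7.22 and 7.14 in CKD, and 7.26, 7.05, 6.93 and 6.88 in CKD TRF. All diseased libraries lay below all Control libraries. In scaled reads Atf4 averaged 167 ± 9.83 (Control), 145 ± 6.21 (CKD) and 131 ± 15.8 (CKD TRF). In CKD the change of -0.20 ± 0.10 did not pass (limma adjusted p = 0.0888), passed with median centring (-0.31, limma adjusted p = 0.0135), and lay at 0.02 with equal sums, 0.02 with voom and 0.01 with quantile normalization. In CKD TRF, Atf4 fell against Control by 0.36 ± 0.10 (limma adjusted p = 0.00532), 22.1% lower. That call did not hold with equal sums (-0.22, limma adjusted p = 0.0897), voom (-0.22, limma adjusted p = 0.0924) or quantile normalization (-0.18, limma adjusted p = 0.140), nor without the 5 libraries with fat markers (-0.34, limma adjusted p = 0.209).

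Ddit3 encodes CHOP, a factor downstream of ATF4 that is linked to cell death under prolonged stress, and lies on the plus strand of chr10:127290774-127296288. Its log2 values ran from 4.97 to 5.44 in Control, from 5.05 to 5.25 in CKD and from 4.99 to 5.39 in CKD TRF. Every CKD value lay inside the Control range. The mean was 35.5 ± 5.13, 34.4 ± 2.07 and 35.3 ± 4.61 scaled reads in that order, and the change in CKD was -0.04 ± 0.12 (95% interval -0.30 to 0.22, limma adjusted p = 0.834), or 0.18 with equal sums or voom. Mars, which encodes methionyl-tRNA synthetase, covers the 3′ end of Ddit3 on the opposite strand, so that without a known strand setting reads of these genes cannot be told apart.

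Trib3 and Asns are downstream of ATF4 and were both near the lower end of the tested genes. Trib3 encodes a pseudokinase that restrains AKT and ATF4, and lies on the minus strand of chr2:152337422-152344032. Control libraries had 5 to 10 reads of it, CKD libraries 13 to 35 and CKD TRF libraries 10 to 42, in libraries that were deeper in both diseased groups. In log2 values this was 1.02, 0.94, 0.51 and 0.79 in Control, 1.56, 1.57, 1.15 and 0.89 in CKD, and 1.41, 1.26, 1.81 and 0.73 in CKD TRF. Most diseased libraries lay above the Control range, but CKD 4 and CKD TRF 4 lay inside it. The mean was 0.774 ± 0.262, 1.49 ± 0.551 and 1.55 ± 0.762 scaled reads, and the change of 0.48 ± 0.26 in CKD did not pass (95% interval -0.08 to 1.03, limma adjusted p = 0.150). At so few reads the added 1 understates a fold change, and over the alternatives the value ran from 0.15 with quantile normalization to 1.13 with voom.

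Asns encodes asparagine synthetase and lies on the minus strand of chr6:7675169-7693254 with 12 exons. Its reads numbered 17 to 28 per Control library, 39 to 77 per CKD library and 31 to 43 per CKD TRF library. Its log2 values were 1.95, 1.51, 1.29 and 1.72 in Control, 2.15, 2.41, 1.81 and 1.83 in CKD, and 1.69, 1.95, 1.60 and 1.89 in CKD TRF. CKD 1 and CKD 2 lay above all Control libraries, and all other diseased libraries lay within the Control range. The mean was 2.11 ± 0.607, 3.20 ± 0.858 and 2.45 ± 0.388 scaled reads. The change of 0.43 ± 0.22 in CKD did not pass as deposited (95% interval -0.03 to 0.90, limma adjusted p = 0.119) and passed with equal sums (0.59, limma adjusted p = 0.0341), with values from 0.07 under quantile normalization to 0.84 with voom. For both genes this depth cannot show changes within these intervals.

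**Figure D2:**
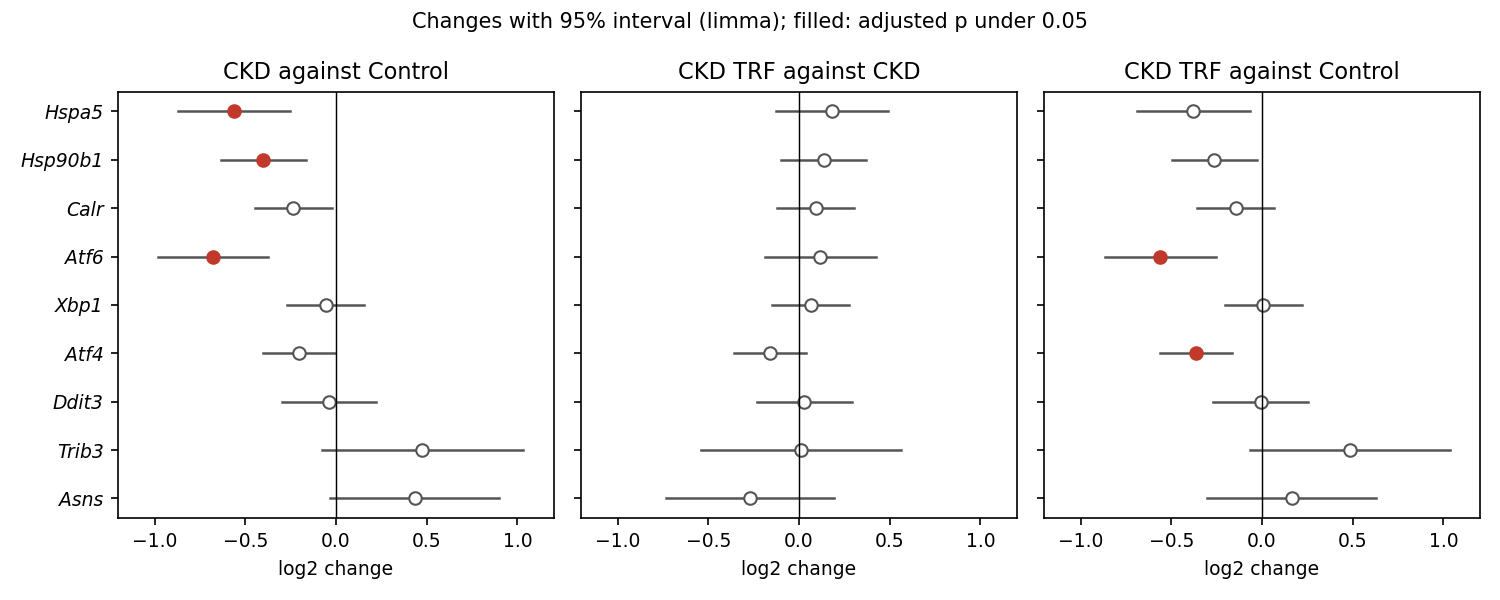
Change of each of the 9 genes in the 3 comparisons, as the difference of group mean log2 values with its 95% interval from limma (n = 4 per group); filled points passed an adjusted p of 0.05 over all tested genes. In CKD against Control Hspa5, Hsp90b1 and Atf6 are filled, in CKD TRF against Control Atf6 and Atf4, and in CKD TRF against CKD every interval covers 0; the sign of Hsp90b1 in CKD turns under quantile normalization.

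Counted over the 9 genes, 7 changes in CKD were negative, with a median of -0.20 against 0.02 for all tested genes. CKD and Control libraries did not overlap for 39.5% of all tested genes, with CKD lower for 19.2% of all tested genes. Hspa5, Atf4, Atf6 and Calr were among the latter. An exact two-sided permutation test of each gene alone gave p = 0.0286 for these 4, the smallest value that 4 against 4 libraries allow, and 0.129 after adjustment over the 27 tests. Groups of 4 that do not overlap always give 0.0286 in this test, so it restates the separation and adds no support. For Hsp90b1 the exact permutation p was 0.0571. Equal sums moved the median of the 9 to 0.02, while the median tested gene moved to 0.23.

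Changes in CKD went with the level of a gene across the table. Among the tenth of tested genes with the highest mean level, which held Hspa5, Hsp90b1, Calr and Atf4, the median change was -0.30. The tenth that held Atf6 and Ddit3 had a median of -0.03, and those that held Trib3 and Asns had 0.28 each. Hspa5 and Hsp90b1 were thus below the median of genes of their level, Calr and Atf4 above it, and Atf6 well below the median of its own. The part of level in these changes was not tested.

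**Figure D3:**
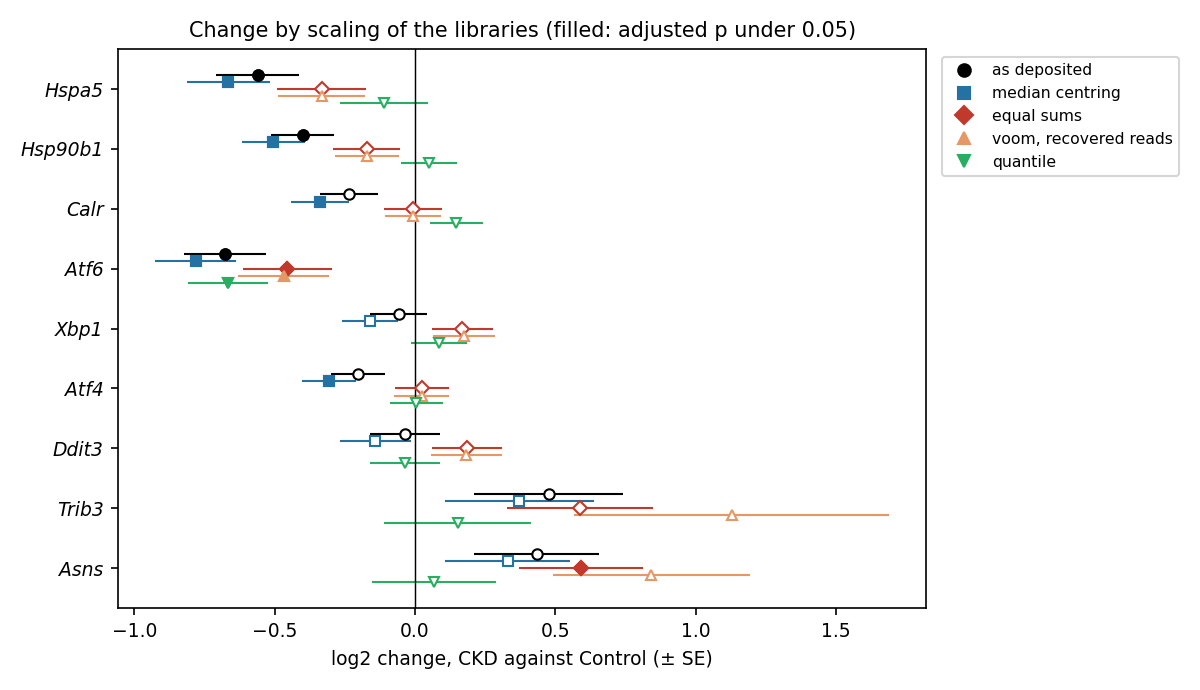
Change in CKD against Control of each of the 9 genes under 5 scalings of the libraries, as log2 difference ± SE, with filled symbols for an adjusted p under 0.05 over all tested genes. Atf6 is filled in every scaling, from -0.78 with median centring to -0.46 with equal sums, whereas Hspa5 and Hsp90b1 are filled only as deposited and with median centring, and Hsp90b1, Calr, Atf4, Xbp1 and Ddit3 cross 0 in at least 1 scaling.

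Differences between 2 genes within a library do not depend on how a library is scaled, apart from the added 1. Xbp1 was taken as the reference after its values were seen, because its groups overlapped. On the log2 scale Atf6 minus Xbp1 was -1.18 ± 0.28 for Control, -1.80 ± 0.21 for CKD and -1.74 ± 0.11 for CKD TRF libraries (SD, n = 4), and the Control libraries lay above all diseased ones. Hspa5 minus Xbp1 was 3.61 ± 0.34, 3.11 ± 0.08 and 3.23 ± 0.23, and Hsp90b1 minus Xbp1 was 3.08 ± 0.12, 2.74 ± 0.11 and 2.81 ± 0.21. In CKD against Control the groups did not overlap for any of these 3 differences. Each therefore had the smallest possible exact permutation p of 0.0286, and 0.107 after adjustment over 15 such tests. With Ddit3 as the reference, whose groups also overlapped, Control and CKD libraries were not separated: Atf6 minus Ddit3 was 0.38 ± 0.50 for Control and -0.26 ± 0.06 for CKD libraries (exact permutation p = 0.143, 0.238 after adjustment), with Control 2 at -0.31. Hspa5 minus Ddit3 was 5.17 ± 0.48 and 4.64 ± 0.22 (exact permutation p = 0.114, 0.238 after adjustment). The separation of Atf6 and Hspa5 thus depended on the reference gene. Such a difference shows unequal change of a pair and not which gene changed.

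Within Control, Hspa5, Hsp90b1 and Atf6 shared their lowest and their highest library. Control 2 was the lowest Control library for 5 of the 9 genes, Hspa5, Hsp90b1, Calr, Atf6 and Xbp1, and the highest for Ddit3. Control 4 was the highest for Hspa5, Hsp90b1 and Atf6, and Control 3 for Calr. In the diseased groups Hspa5, Hsp90b1 and Atf6 did not all share a lowest or a highest library. CKD 4 was the lowest CKD library for Hspa5 and the highest for Atf6. CKD TRF 1 was the highest CKD TRF library for Hspa5 and the lowest for Atf6. Other sets of genes did share extremes there. CKD TRF 1 was the highest CKD TRF library for 5 of the 9, Hspa5, Hsp90b1, Calr, Atf4 and Ddit3. CKD 2 was the lowest and CKD 3 the highest CKD library for both Hsp90b1 and Calr. The SD of the log2 value of Hspa5 was 0.38 in Control and 0.15 in CKD, and that of Atf6 was 0.37 and 0.13. Leaving out both Control 1 and Control 2 gave changes in CKD of -0.88 for Hspa5 and -0.96 for Atf6. Control 1 and Control 2 held the lowest Control values of both genes, so leaving them out had to enlarge both falls.

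Time restricted feeding was compared with CKD alone to ask whether feeding hours move these genes within the disease. None of the 9 passed in limma, none had an unadjusted p under 0.05 (6.38% of tested genes did), and voom also called 0. Hspa5 had the highest value, 0.18 (95% interval -0.13 to 0.49), and Asns the lowest, -0.27 (-0.74 to 0.19). Hsp90b1 stood at 0.14 (-0.10 to 0.37), Atf6 at 0.12 (-0.19 to 0.42) and Calr at 0.09 (-0.12 to 0.30). Atf4 stood at -0.16 (-0.36 to 0.04), Xbp1 at 0.06 (-0.15 to 0.28), Ddit3 at 0.03 (-0.23 to 0.29) and Trib3 at 0.01 (-0.54 to 0.56). The signs of Xbp1, Ddit3 and Trib3 were the opposite with equal sums and with voom. The groups overlapped for each of the 9 (4.5% of tested genes did not), and adjusted p ran from 0.820 to 0.994. These intervals leave room for differences in either direction, and they are widest for the low genes Trib3 and Asns.

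Against Control, CKD TRF libraries were lower for Atf6 and Atf4 without overlap (31.9% of tested genes did not overlap, 15.6% lower). Atf6 fell by 0.56 ± 0.15, 32.2% lower (limma adjusted p = 0.00507), and kept the call in 20 of 21 limma alternatives. It was lost without the 5 libraries with fat markers (-0.57, limma adjusted p = 0.191), where CKD TRF kept 1 library that is assumed to vary like the others. Hspa5 was at -0.38 ± 0.15 (limma adjusted p = 0.0507) and did not pass. It passed without Control 1 (-0.46, limma adjusted p = 0.0313), without Control 2 (-0.51, limma adjusted p = 0.00657) and without CKD TRF 1 (-0.47, limma adjusted p = 0.0275). Control 1 and Control 2 held its lowest Control values and CKD TRF 1 its highest CKD TRF value. Leaving out any of them had to enlarge the fall, so these passes add no support. With equal sums Hspa5 was at -0.23 (limma adjusted p = 0.269), with voom at -0.23 (limma adjusted p = 0.256) and with quantile normalization at -0.03 (limma adjusted p = 0.886). Hsp90b1 was at -0.26 ± 0.11 (limma adjusted p = 0.0714), with 0.06 under quantile normalization. It passed without Control 2 (-0.37, limma adjusted p = 0.00690), its lowest Control library, whose removal had to enlarge the fall. Calr stood at -0.14, Xbp1 at 0.01, Ddit3 at -0.01, Trib3 at 0.49 and Asns at 0.16, with adjusted p from 0.159 to 0.972, and the signs of Calr, Xbp1, Ddit3 and Asns turned in at least 1 of 4 other scalings. No group without the disease was kept on time restricted feeding, so whether the response to disease differed between feeding schedules cannot be told. The comparison of CKD TRF with CKD above, in which no gene passed, concerns feeding within the disease only.

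The surrounding pathway was described by 6 lists. Of 16 genes for eIF2, its kinases, its exchange factor and its phosphatase, 1 rose and 6 fell in CKD, 43.8% called against 45.4% of all tested genes, with a median of -0.11 that became 0.11 with equal sums. With equal sums, and likewise with voom, 3 rose and 3 fell. Eif2ak1, the heme-regulated eIF2 kinase, fell by 0.52 ± 0.10 (limma adjusted p = 2.2e-04), from 79.4 ± 5.42 to 55.0 ± 0.61 scaled reads. Eif2s3x, the gamma subunit of eIF2, fell by 0.54 ± 0.13 (limma adjusted p = 0.00197), and Eif2b1, a subunit of the exchange factor, by 0.52 ± 0.17 (limma adjusted p = 0.0164). The call of Eif2b1 held in 16 of 21 limma alternatives and was lost with equal sums, with voom, without Control 1, without CKD 1 and without both Control 1 and Control 2. Under time restricted feeding 0 rose and 6 fell against Control, 37.5% called against 37.5% of all tested genes. Eif2ak1 fell by 0.40, Eif2s3x by 0.57 and Eif2b1 by 0.55, and these calls held in 18, 21 and 15 of 21 alternatives.

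ATF4 and CHOP targets were divided. Of the 41 listed, 38 were tested (Chac1, Fgf21 and Slc7a5 were too low), 13 rose and 7 fell in CKD, 52.6% called against 45.4% of all tested genes, with a median of 0.15 against 0.02 for all tested genes. Under feeding restriction 12 rose and 5 fell against Control, 44.7% called against 37.5% of all tested genes. The glutamine and alanine transporter gene Slc38a2 rose by 1.35 ± 0.15 (limma adjusted p = 4.3e-07), from 59.3 ± 14.7 to 149 ± 11.1 scaled reads. Atf3, an early stress factor, rose by 1.57 ± 0.30 (limma adjusted p = 2.7e-04), and Slc7a1, a cationic amino acid transporter gene, by 1.14 ± 0.17 (limma adjusted p = 1.9e-05). Atf3 was low, at 1.26 ± 1.38 scaled reads in Control and 5.03 ± 1.18 in CKD. Its call held in all 20 limma alternatives, but the size of its change ran from 0.70 to 2.76. Among CKD TRF libraries Slc38a2 rose against Control by 1.02 ± 0.15, Nupr1, a stress-induced chromatin protein gene, by 1.00 ± 0.17, and Slc7a11, the cystine transporter gene, by 1.26 ± 0.25 (limma adjusted p = 5.1e-04). Slc7a11 had 0.085 ± 0.17 scaled reads in Control, under the level of 3 reads, so its fitted change depends on the added constant and ran from 0.38 to 4.46 over the alternatives. In CKD its call (limma adjusted p = 0.0356) held in 8 of 20 limma alternatives.

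The 7 targets that fell in CKD were Psph (-0.83), Sars (-0.71), Slc3a2 (-0.70), Sesn2 (-0.59), Tars (-0.45), Eprs (-0.42) and Shmt2 (-0.40). Those that rose beside the 3 already named were Nupr1, Mthfd2, Gdf15, Stc2, Ddit4, Cebpb, Bbc3, Tnfrsf10b, Slc7a11 and Atf5. These names are given to complete the count and lie partly outside the naming rule. With equal sums 17 of the list rose and 3 fell, with median centring 12 and 10, with quantile normalization 10 and 5, and without the 5 libraries with fat markers 7 and 4. Atf4 and Ddit3 themselves did not pass in CKD, and macrophage and fibroblast markers, whose sums are given above, were higher in the same libraries; their part in this list was not tested.

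Of 10 tested genes for IRE1, ATF6 relatives and their proteases, 1 rose and 1 fell in CKD, 20% called against 45.4% of all tested genes. With equal sums 3 rose and 0 fell, and with voom 2 and 0. Mbtps1, which encodes the protease that first cuts ATF6, rose by 0.32, and Rtcb, which encodes the ligase that rejoins Xbp1, fell by 0.39 ± 0.10 (limma adjusted p = 0.00354). Neither call held in all alternatives: Mbtps1 kept it in 16 of 21 and Rtcb in 16 of 21. Mbtps1 lies outside the naming rule and was named after its value was seen, to complete the count. With time restricted feeding 0 rose and 1, Rtcb, fell against Control, 10% called against 37.5% of all tested genes.

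Of 30 tested ER chaperone and folding genes outside the 9, 5 rose and 7 fell in CKD, 40% called against 45.4% of all tested genes, with a median of -0.18 that became 0.04 with equal sums and 0.05 with voom. The counts were 7 and 3 with equal sums and 4 and 13 with median centring. The genes that rose were Fkbp7 (1.23 ± 0.17, limma adjusted p = 1.1e-05), Serpinh1 (0.74 ± 0.14, limma adjusted p = 2.7e-04), Fkbp14 (0.65), Pdia3 (0.52) and Hyou1 (0.39). Serpinh1 encodes the chaperone of collagen, and Fkbp7 and Fkbp14 encode ER prolyl isomerases. Ganab, the catalytic subunit of glucosidase II, fell by 0.72 ± 0.11 (limma adjusted p = 2.8e-05), from 183 ± 34.2 to 110 ± 5.84 scaled reads. The other genes that fell were Sdf2 (-0.69), Creld2 (-0.69), Sil1 (-0.61), Fkbp2 (-0.47), Erp29 (-0.42) and Erp44 (-0.29), the last with a call that held in 10 of 21 limma alternatives. Fkbp14, Pdia3, Hyou1 and these 6 are given to complete the counts and lie partly outside the naming rule. Fibroblast marker sums were higher in the same CKD libraries, and their part in the collagen-related members was not tested. CKD TRF against Control had 5 that rose and 6 that fell, 36.7% called against 37.5% of all tested genes. Fkbp7 was at 1.21, Fkbp14 at 0.89 and Serpinh1 at 0.73.

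Of 21 tested genes of ER-associated degradation, 2 rose and 7 fell in CKD, 42.9% called against 45.4% of all tested genes, with a median of -0.11 (0.12 with equal sums). With equal sums, and likewise with voom, 5 rose and 2 fell. Rnf5, a membrane ubiquitin ligase gene, fell by 1.68 ± 0.28 (limma adjusted p = 7.7e-05), with a wide Control spread of 138 ± 98.3 scaled reads against 36.1 ± 4.09 in CKD. Ufd1l, a cofactor of the VCP segregase, fell by 0.67 ± 0.10, and Herpud2 rose by 0.81 ± 0.13. For CKD TRF against Control 1 rose and 6 fell, 33.3% called against 37.5% of all tested genes. Edem2, a mannosidase-like gene, fell by 0.59 ± 0.16 (limma adjusted p = 0.00602).

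ER translocation and export genes were the list with the most genes that fell. Of 30 tested, 2 rose and 18 fell in CKD, 66.7% called against 45.4% of all tested genes, with a median of -0.34. Of all tested genes 21.8% fell. Among the tenth of tested genes with the highest mean level the median was -0.30, and the part of level in this list was not tested. Sec62, a translocon subunit, fell by 0.90 ± 0.12 (limma adjusted p = 9.3e-06), from 1129 ± 189 to 598 ± 57.7 scaled reads. Srp9, of the signal recognition particle, fell by 0.95 ± 0.14 (limma adjusted p = 2.2e-05). Kdelr3, a receptor that returns ER proteins bearing the KDEL signal, rose by 1.15 ± 0.18 (limma adjusted p = 3.5e-05). With equal sums 4 rose and 10 fell, and the median was -0.11. In CKD TRF against Control 2 rose and 13 fell, 50% called against 37.5% of all tested genes. Among those that fell were Sec63, a translocon cochaperone, by 0.84 ± 0.12 (limma adjusted p = 1.7e-05), and Sec62 by 0.85. In CKD TRF against CKD limma called 0 genes in each of the 6 lists, with 0 to 7 per list at an unadjusted p under 0.05, and voom also called 0.

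**Figure D4:**
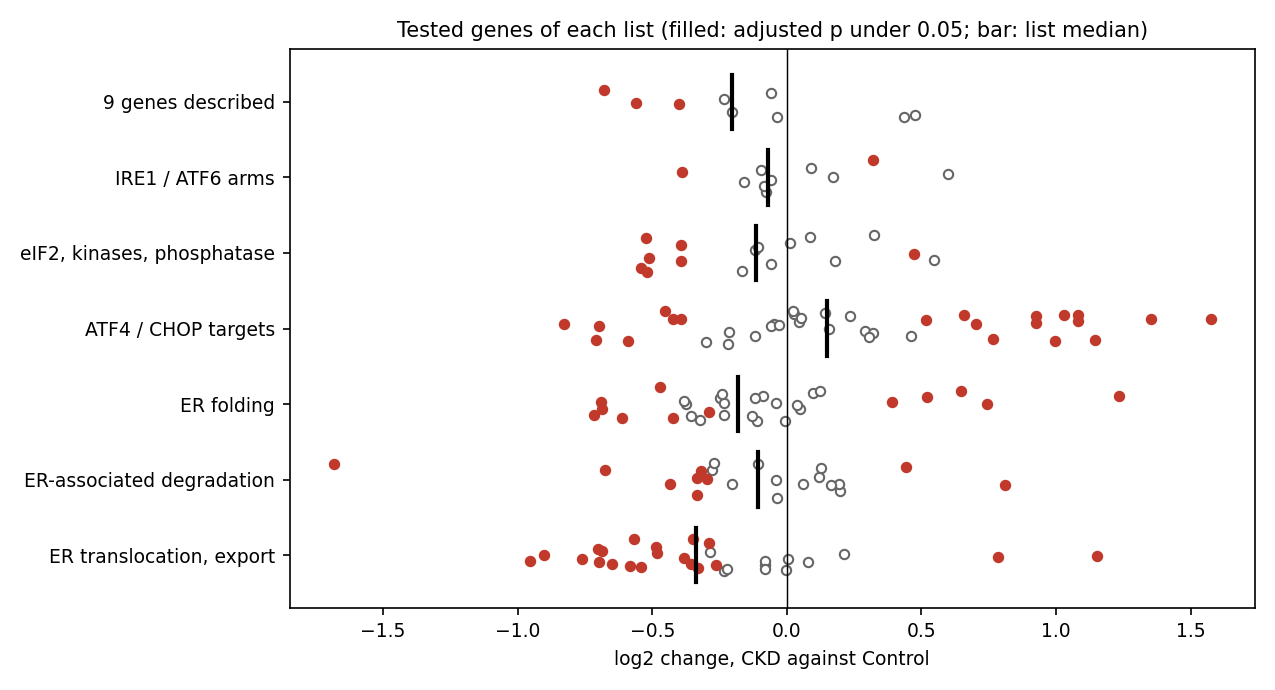
Change in CKD against Control of every tested gene of the 9 genes and of the 6 pathway lists, as the difference of group mean log2 values; filled points passed an adjusted p of 0.05 over all tested genes, the vertical bar is the list's median, and vertical scatter within a list has no meaning. ATF4 and CHOP targets extend to the right up to 1.57, while 18 filled points of the ER translocation and export list lie left of 0 as deposited and 10 with equal sums.

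Genes closest in pattern to the members that passed were found as the smallest mean absolute difference of centred log2 values over the 12 libraries. For Hspa5 these were Mtmr4 (0.0931), Hspa4 (0.108) and Clcn3 (0.114), and for Hsp90b1 Cdc27 (0.0601), Eif4e (0.0651) and Mtdh (0.0677). Atf6 was followed most closely by Cdc42bpa (0.0943), Col4a3bp (0.111) and Gspt1 (0.114). For Atf4 they were Hsp90ab1 (0.0581), Idh2 (0.0621) and Ctsz (0.0629). The 12 libraries share their groups and scaling, so these values describe likeness over these libraries.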

How the data were processed

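Libraries were made from 500 ng of Trizol-extracted total RNA with Lexogen's QuantSeq kit (labels' protocols). The submitters' processing notes name Bowtie2, bedtools and the mm10 build, with no versions. The deposited log2 values, 1 per gene symbol, had been scaled by the authors. Their scaling method and strand setting are not given in the sources used here. From the values below 20 scaled reads, 98.3% to 100% of which lay within 0.1 of whole reads, the size of 1 read and the depth were recovered.

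Of 35 repeated symbols only the entry of highest mean was used. The 60% of genes with the highest means were fitted in limma 3.58.1 (R 4.3.3) with 1 mean per group, Benjamini-Hochberg adjustment and a threshold of 0.05. Scripts were tested on simulated data. Besides all 9 genes, at most 3 genes per list and comparison were named, those with the largest change among genes past 0.05 whose groups did not overlap; others are marked. The alternatives were other scalings, filters, added constants of 0.25 and 5, sample weights, 2 groups only, voom, a replicate block, leaving out libraries and the exact permutation test of each gene at its unadjusted p. The members and lists were chosen with earlier results of these data known. Promoters came from RefSeq GRCm38.p6 and positions from GENCODE M21. Protein sequences were not analysed here.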

Additional observations from a re-analysis of the deposited data

How the results depend on the processing

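Of 196 alternative values for the 9 genes in CKD against Control, 180 kept their side of the threshold and any call its direction, 7 passed newly, 8 lost the call and 1, Hsp90b1 under quantile normalization (0.0493), turned. These values include the exact permutation test at its unadjusted p, by which Atf4 and Calr passed newly and Hsp90b1 lost the call. For Atf4 and Calr that pass only restates that their CKD and Control libraries did not overlap. In CKD TRF against Control 180 of 196 were kept, 11 passed newly and 5 lost the call, and in CKD TRF against CKD all 196 were kept. With equal sums 1 of the 9, Asns, rose and 1, Atf6, fell in CKD against Control. The number of the 9 called in CKD against Control was 3 as deposited, and 1 under quantile normalization, 5 with median centring and 1 with voom. In CKD TRF against Control it was 2, and 1 under quantile normalization, with equal sums and with voom, and 4 with median centring and with sample weights. Alternatives chosen after seeing the data left out the 5 libraries with fat markers or Control 1 and Control 2. Without the 5 libraries, genes called were 4037 in place of 6333 in CKD and 1478 in place of 5225 in CKD TRF against Control, and 1 and 0 of the 9; fewer libraries entered. Without Control 1 and Control 2, 4 of the 9 were called in CKD TRF against Control. With no filter 1 gene was called in CKD TRF against CKD. Leaving out 1 library gave 5388 to 6265, 0 to 1 (1 without CKD TRF 1) and 4396 to 5150 genes, and 3 to 4, 0 to 0 and 2 to 4 (4 without Control 2) of the 9, in the order CKD against Control, then CKD TRF against CKD, then CKD TRF against Control. With a replicate block 6131, 0 and 5033 genes and 3, 0 and 2 of the 9 were called. The 12 same-number pairs of libraries had correlations of -0.18 to 0.11 in their deviations from group means. Such values show no strong pairing by number and cannot exclude a weak one. Depth limits Trib3 and Asns, which had fewer than 80 reads in every library.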
